A study of Homo sapiens with 6 samples.

Results

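Glutathione is the main thiol antioxidant of the cell, a tripeptide of glutamate, cysteine and glycine. Transsulfuration supplies part of its cysteine: CBS joins homocysteine and serine to cystathionine, and CTH cleaves cystathionine to cysteine. Glutamate-cysteine ligase, made of the catalytic subunit GCLC and the modifier subunit GCLM, and then glutathione synthetase (GSS) build the tripeptide. The peroxidases GPX1 and GPX4 spend it on hydrogen peroxide and lipid peroxides, and glutathione reductase (GSR) restores it with NADPH. CHAC1 cleaves glutathione inside the cell, and GGT1, an enzyme of the proximal tubule brush border, cleaves it outside. These 10 genes are described here out of 35035 rows of the deposited table. They were listed by name, with earlier results of these data known, and all 10 passed the filter on low values.

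The RNA came from HK-2, an established human cell line derived from the proximal tubule of the kidney, labelled WT when they carried empty-vector plasmids and circAASS-overexpressed when they carried circAASS plasmids. Each group had 3 libraries, and both groups went through 24 h at 1% oxygen and 12 h of reoxygenation, so a comparison with cells at normal oxygen was not analysed here. The series' design text gives a different time, 24 h after the treatment. By its name circAASS is a circular RNA of the gene AASS, the enzyme that opens lysine degradation; it was not matched by coordinates and has no value here. The labels name no separate cultures for the repeats, so p-values reflect library-to-library spread alone, which may be technical.

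Libraries held 45148425 to 58179563 reads, as worked out from the deposited values, with mates mostly counted separately. The host gene AASS stood at 1.10 to 1.38 RPKM in empty-vector libraries and at 0.827 to 0.977 in circAASS libraries, which does not check the plasmid, since reads summed over a gene do not tell a circular RNA from a linear one. RPKM are reads scaled to gene length and library size. Of 10 proximal tubule markers, PAX8 and SLC5A2 were above 1 RPKM, while LRP2, CUBN, SLC34A1, AQP1, ANPEP, ALPL and HNF4A stayed at or below 0.0677 RPKM in every library and SLC22A6 had no row. The summed level of the 10 was 28.3 to 29.99 RPKM in empty-vector libraries and 41.8 to 46.9 in circAASS libraries. PAX8 rose from 25.0 to 42.3 RPKM, and SLC5A2, of which overlapping genes share 40.7% of the exon bases, fell from 3.85 to 1.87 RPKM (limma, adjusted p = 0.000242 and 0.00118). The endothelial markers PECAM1, CDH5 and KDR summed to at most 0.0767 RPKM, and the leukocyte markers PTPRC and CD3E each stayed at or below 0.0138 RPKM. CD68, a lysosomal protein not limited to leukocytes, stood at 78.2 to 106 RPKM, and overlapping genes share 85.8% of its exon bases. Of 4 fibroblast markers COL1A1 alone was above 1 RPKM (1.04 to 1.37), and of 4 epithelial markers KRT8 and KRT18 rose (127 to 149 and 79.3 to 107 RPKM), EPCAM fell (26.8 to 22.1) and CDH1 stayed at or below 0.0857 RPKM and was not called. The call of EPCAM (limma, adjusted p = 0.0338) held in 1 of 6 leave-one-out fits. RN7SK, an RNA without a poly(A) tail, stood at 34.1 to 44.7 RPKM in empty-vector libraries and at 55.6, 135 and 190 in circAASS libraries, and genes of the mitochondrial genome took 8.86% to 9.03% against 9.09% to 10.1% of reads. Their part in the results below was not tested.

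Stretches upstream of the start sites of CTH, GCLC, GCLM and CHAC1 are shown because CTH and CHAC1 had the largest rises among the members and because GCLC and GCLM encode partners of 1 enzyme. They come from RefSeq (GRCh38.p14), which held 8 of the 10 members, and are written 5′ to 3′ in the direction of the gene. Capitals mark TGATGNAA, an element known to bind ATF4 with C/EBP proteins, or TGACNNNGC, the core of the antioxidant response element bound by NRF2. Both strands were searched over 250 bases before and 50 bases after each start, and no 2 matches overlapped. The stretch of CTH ends at the base before exons of the gene begin in GENCODE 29. That of GCLC ends at the base before the exon inside its window, and GENCODE 29 starts the gene further upstream, at position 53616970. The stretch of GCLM ends on the opening base of its exon, where the match ends. For CHAC1, where other transcripts also start further upstream, 30 bases around the match are shown.
CTH, chr1:70411018-70411217, plus strand: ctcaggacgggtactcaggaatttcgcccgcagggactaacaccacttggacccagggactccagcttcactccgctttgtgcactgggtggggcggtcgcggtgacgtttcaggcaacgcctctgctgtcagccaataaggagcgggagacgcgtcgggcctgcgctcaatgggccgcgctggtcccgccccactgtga
GCLC, chr6:53545130-53545351, minus strand: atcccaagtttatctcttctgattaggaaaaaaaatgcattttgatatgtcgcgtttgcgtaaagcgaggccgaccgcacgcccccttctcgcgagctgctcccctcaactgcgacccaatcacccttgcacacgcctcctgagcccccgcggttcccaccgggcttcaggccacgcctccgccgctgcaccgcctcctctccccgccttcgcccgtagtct
GCLM, chr1:93909456-93909680, minus strand: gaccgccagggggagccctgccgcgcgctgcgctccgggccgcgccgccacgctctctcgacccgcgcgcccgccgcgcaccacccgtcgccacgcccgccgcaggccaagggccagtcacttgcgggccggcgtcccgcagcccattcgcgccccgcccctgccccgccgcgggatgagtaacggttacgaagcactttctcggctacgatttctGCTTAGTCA
CHAC1, chr15:40953251-40953280, plus strand: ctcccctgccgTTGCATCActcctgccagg

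In CHAC1 the match to TGATGNAA lay on the strand opposite to the gene, 209 to 202 bases before the start. In GCLM the match to TGACNNNGC also lay on the opposite strand, 34 to 26 bases before the start. CBS held a match to TGACNNNGC 83 to 75 bases before its start. The windows of CTH, GCLC, GPX1, GPX4 and GGT1 held neither string. Of 35116 RefSeq promoter windows of the same length, 3.62% held TGATGNAA and 13.3% held TGACNNNGC, so a match is a description of the letters only.

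Across the pathway 4 of the 10 members rose and 2 fell in circAASS libraries. CTH, GCLM, CHAC1 and GSR rose, whereas GSS and GGT1 fell. CBS, GCLC, GPX1 and GPX4 did not pass. The test was limma on log2(RPKM + 0.1) with an adjusted p under 0.05 over 19349 genes, and it called 32.4% of all tested genes, 16.4% higher and 16.0% lower. The members' median log2 fold change was 0.21, beside -0.01 for all tested genes. The members' shares of 4 and 2 in 10 stand beside that broad background, and nothing is read from them as a group. Per-library RPKM did not overlap between the groups in 8 members, 5 higher and 3 lower. Beside this, 47.5% of all tested genes did not overlap, 17.1% higher and 30.3% lower. Overlap was taken on the deposited RPKM, before the scaling used for the calls. Scaling divided empty-vector libraries by 1.02 to 1.04 and circAASS libraries by 0.954 to 0.996, which lowers the former and raises the latter. In bulk RNA, fewer cells of a kind and less RNA per cell cannot be told apart.

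**Figure D1:**
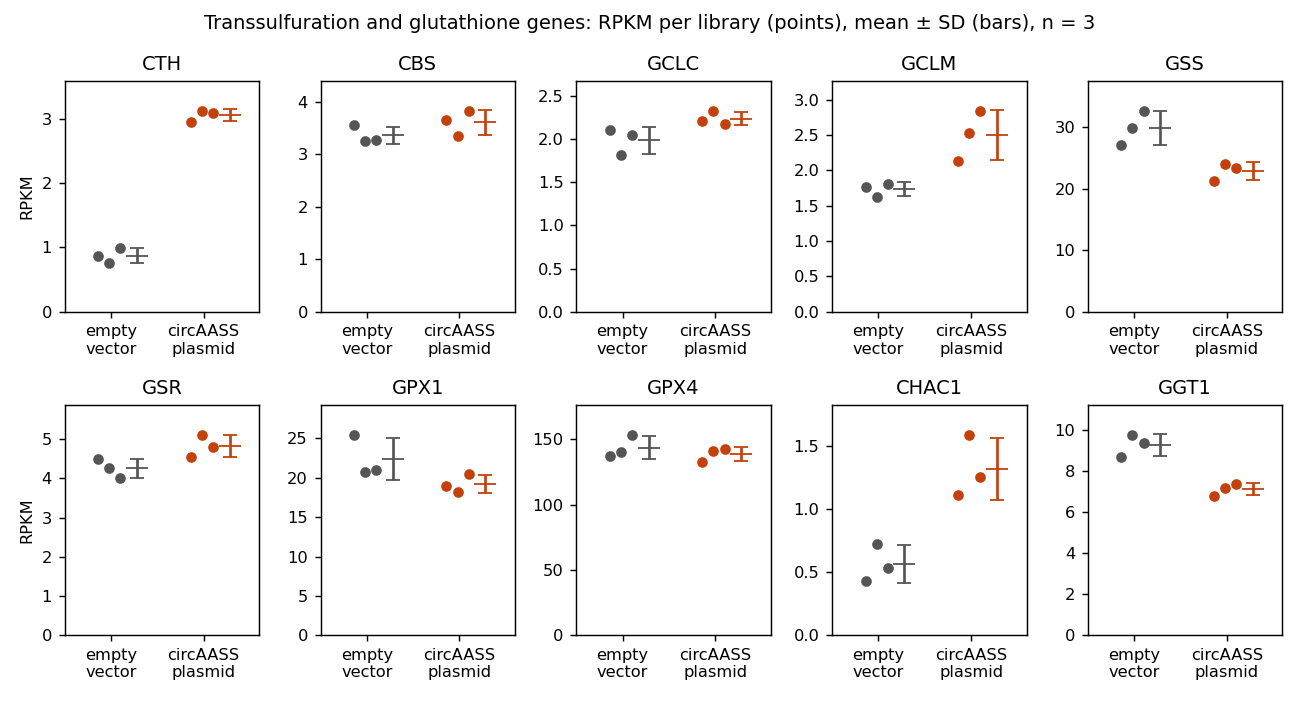
RPKM of each of the 10 genes in each library (points, vertical axis from 0, a separate scale per gene), with mean ± SD beside them (n = 3 per group). CTH and CHAC1 lie apart between the groups, at 0.755 to 0.995 against 2.95 to 3.119 RPKM and at 0.430 to 0.724 against 1.11 to 1.59 RPKM, while CBS and GPX4 overlap.

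CTH, the cystathionine-cleaving enzyme (chromosome 1, 70411218 to 70439851, GENCODE 29 on GRCh38), stood at 0.862, 0.755 and 0.995 RPKM in empty-vector libraries. It stood at 2.95, 3.119 and 3.09 RPKM in circAASS libraries. The lowest circAASS library was well above the highest empty-vector library, and the circAASS libraries lay closer together, with an SD of 2.92% of the mean against 13.8%. From the RPKM, 94, 93 and 126 reads were worked out in empty-vector libraries and 342, 438 and 354 in circAASS libraries. The log2 fold change was 1.78 (SE 0.11; limma, adjusted p = 0.000145), which ranked the gene at place 47 of the 19349 by p and above 99.8% of them by fold change. With a pseudocount of 1 RPKM in place of 0.1 it was 1.17.

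CBS, which makes the cystathionine that CTH cleaves (chromosome 21, 43053191 to 43076943), stood at 3.55, 3.26 and 3.28 RPKM in empty-vector libraries and at 3.65, 3.36 and 3.83 in circAASS libraries. The groups overlapped. A log2 fold change of 0.18 did not pass (95% interval -0.01 to 0.36, adjusted p = 0.125). GRCh38 holds a near-identical copy of CBS on the same chromosome, named CBSL. How the reads were split between them is uncertain, so the CBS values may hold only a part of its reads. CBSL itself stood at 7.03 to 8.69 RPKM in empty-vector libraries and at 7.29 to 8.54 in circAASS libraries. The reads of both rows together came to 54.6 ± 4.33 CPM (reads scaled to library size) in empty-vector libraries. In circAASS libraries they came to 56.8 ± 2.68 CPM (SD, n = 3 each, exact two-sided permutation p = 0.6).

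The RNA levels of the 2 transsulfuration enzymes were compared within libraries. CBS was taken from its own row, without the reads given to CBSL, so the level of its ratio to CTH depends on that uncertain split. CTH per CBS, a ratio of RPKM within a library, was 0.243, 0.232 and 0.303 in empty-vector libraries and 0.809, 0.929 and 0.809 in circAASS libraries. The ranges lay apart (0.259 ± 0.0384 against 0.849 ± 0.0693, SD, n = 3 each). The exact two-sided permutation test gave p = 0.1, the smallest that 3 against 3 libraries allow. Over the 5 ratios computed here the adjusted p was 0.125.

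**Figure D2:**
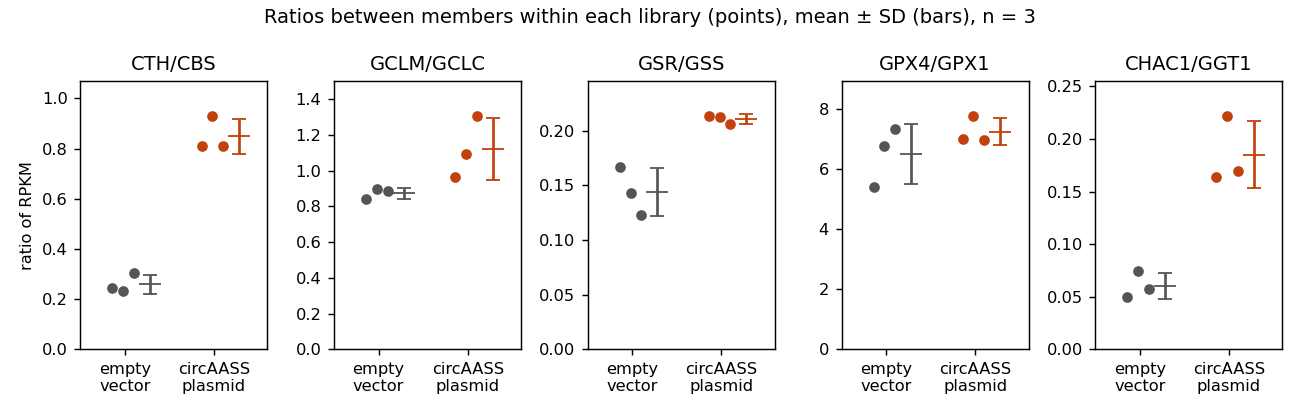
Ratios of RPKM between pairs of members within each library (points, vertical axis from 0), with mean ± SD beside them (n = 3 per group). CTH/CBS, GCLM/GCLC, GSR/GSS and CHAC1/GGT1 did not overlap between the groups, and GPX4/GPX1 did.

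GCLM, the modifier subunit of glutamate-cysteine ligase (chromosome 1, 93885205 to 93909456), rose. It stood at 1.77, 1.62 and 1.81 RPKM in empty-vector libraries and at 2.13, 2.53 and 2.84 in circAASS libraries, from 432 to 515 and 553 to 799 reads. The groups did not overlap, and the circAASS libraries spread more widely (SD 14.3% of the mean against 5.63%). The log2 fold change was 0.57 (SE 0.11, limma adjusted p = 0.00698), and the call was kept in all 6 fits with 1 library omitted.

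GCLC, the catalytic subunit (chromosome 6, 53497341 to 53616970), stood at 2.10, 1.81 and 2.04 RPKM in empty-vector libraries and at 2.20, 2.32 and 2.17 in circAASS libraries. The values just failed to overlap. A log2 fold change of 0.24 did not pass over all genes (95% interval 0.03 to 0.45, adjusted p = 0.0797), although limma-voom on the worked-out reads called it (adjusted p = 0.0175). GCLM per GCLC was 0.840, 0.898 and 0.886 in empty-vector libraries and 0.965, 1.09 and 1.31 in circAASS libraries (exact two-sided permutation p = 0.1, adjusted p = 0.125 over the 5 ratios). With the lengths used, the modifier subunit was thus below the catalytic subunit in the 3 empty-vector libraries and above it in 2 of the 3 circAASS libraries. Which of them lies above depends on the gene models. The length behind the RPKM of GCLC was 8463 bases, whereas its annotated exons cover 8646. The crossing is therefore not read as a change in which subunit has more RNA. The relative shift of the ratio between the groups does not depend on the lengths.

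GSS, which adds glycine in the last step of synthesis (chromosome 20, 34928433 to 34956027), fell. It stood at 27.1, 29.95 and 32.6 RPKM in empty-vector libraries and at 21.3, 24.0 and 23.4 in circAASS libraries, from 2348 to 3291 and 1964 to 2687 reads. The groups did not overlap. This gave a log2 fold change of -0.30 (SE 0.07, limma adjusted p = 0.0165). The call was lost without empty-vector library 2 (adjusted p = 0.0567) or library 3 (adjusted p = 0.0537).

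GSR, the reductase that restores glutathione (chromosome 8, 30678061 to 30727999), went the other way from GSS. It stood at 4.50, 4.28 and 4.02 RPKM in empty-vector libraries and at 4.55, 5.11 and 4.81 in circAASS libraries. The highest empty-vector library lay just under the lowest circAASS library. The log2 fold change of 0.25 passed (SE 0.08, limma adjusted p = 0.0423), but of the 6 leave-one-out fits only that without empty-vector library 1 kept the call (adjusted p = 0.0449). The others gave 0.1 and 0.129 without empty-vector libraries 2 and 3, and 0.0548, 0.108 and 0.0803 without circAASS libraries 1, 2 and 3, and scaling by library size alone gave 0.122. GSR per GSS was 0.166, 0.143 and 0.123 in empty-vector libraries and 0.213, 0.213 and 0.206 in circAASS libraries (exact two-sided permutation p = 0.1, adjusted p = 0.125 over the 5 ratios).

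GPX4, the peroxidase of membrane lipids that guards cells from ferroptosis (chromosome 19, 1103926 to 1106791), was the most abundant member per length. It stood at 137, 140 and 153 RPKM in empty-vector libraries and at 133, 141 and 143 in circAASS libraries. The groups overlapped, and the log2 fold change was 0.03, with a 95% interval from -0.09 to 0.15 (limma adjusted p = 0.665). With library size alone its sign turned, at -0.05. A change of 2-fold lies outside the interval.

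GPX1, the abundant peroxidase of the cytosol and mitochondria (chromosome 3, 49357171 to 49358600), stood at 25.5, 20.7 and 21.0 RPKM in empty-vector libraries and at 19.0, 18.2 and 20.5 in circAASS libraries. Empty-vector library 1 lay above the rest. The deposited values did not overlap, yet the log2 fold change of -0.14 did not pass (95% interval -0.35 to 0.08, adjusted p = 0.292). GPX4 per GPX1 was 6.49 ± 0.990 in empty-vector libraries and 7.23 ± 0.448 in circAASS libraries (SD, n = 3 each), with overlapping values (exact two-sided permutation p = 0.4, also after adjustment).

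CHAC1, which cleaves glutathione in the cytosol and is a known target of the ATF4 pathway (chromosome 15, 40952962 to 40956519), rose from the lowest level of the members. It stood at 0.430, 0.724 and 0.537 RPKM in empty-vector libraries and at 1.11, 1.59 and 1.25 in circAASS libraries, from 40, 76 and 58 reads and 110, 190 and 122 reads. The groups did not overlap, and empty-vector library 2 and circAASS library 2 were the highest of their groups. The log2 fold change was 1.17 (SE 0.20, limma adjusted p = 0.00466), above that of 99.1% of tested genes. With a pseudocount of 1 RPKM it was 0.60, still past the threshold.

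GGT1, which cleaves glutathione at the outer face of the cell (chromosome 22, 24583750 to 24629005), fell. It stood at 8.66, 9.75 and 9.34 RPKM in empty-vector libraries and at 6.80, 7.15 and 7.37 in circAASS libraries. The groups did not overlap, and the log2 fold change was -0.30 (SE 0.06, limma adjusted p = 0.00895), called in all 6 leave-one-out fits. SNRPD3 covers 6.90% of its exon bases on the same strand, and its relative GGT2 stayed at or below 0.0644 RPKM. CHAC1 per GGT1 was 0.0497, 0.0743 and 0.0575 in empty-vector libraries and 0.164, 0.222 and 0.170 in circAASS libraries (exact two-sided permutation p = 0.1, adjusted p = 0.125 over the 5 ratios). The RNA of CHAC1, which acts inside the cell, and that of GGT1, which acts outside, moved in opposite directions.

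**Figure D3:**
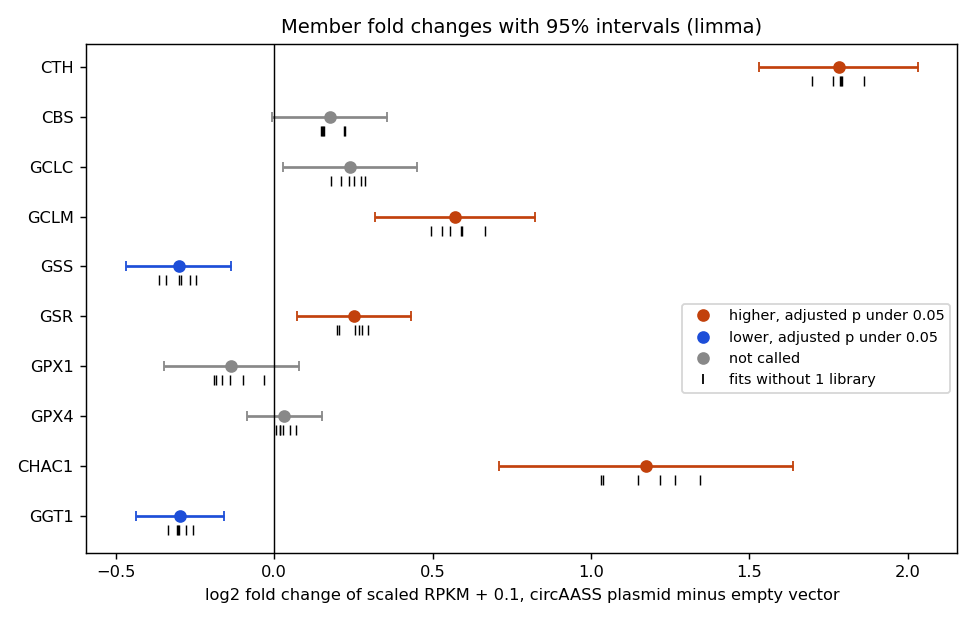
Log2 fold change of scaled RPKM + 0.1 (horizontal axis) of each member, circAASS plasmid minus empty vector, with 95% intervals from limma over 3 and 3 libraries; black ticks are the fits that each left out 1 library. CTH at 1.78 and CHAC1 at 1.17 lie right of the other members, and GSS and GGT1 both lie at -0.30.

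The order of the members by mean RPKM in empty-vector libraries was GPX4 (144), GSS (29.9), GPX1 (22.4), GGT1 (9.25), GSR (4.26), CBS (3.36), GCLC (1.99), GCLM (1.73), CTH (0.871) and CHAC1 (0.564). Among neighbours in that order GCLC and GCLM overlapped, and the other neighbours did not. With the circAASS plasmid CTH (3.06) lay above GCLM (2.50) and GCLC (2.23), which again overlapped, and remained below CBS (3.61). The place of GSS depends on its gene model. Its RPKM came out as whole reads with a length of 1922 bases, whereas its exons in GENCODE 29 cover 6174. The lengths of GCLC, GSR and GPX1 also differed from GENCODE 29, so their places depend on the gene model as well. The value of CBS leaves out the reads given to CBSL, which stood at 7.93 RPKM in empty-vector libraries and 8.06 in circAASS libraries.

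Genes around the supply of the 3 amino acids of glutathione were examined with a list of 12 transporters and enzymes, all tested. The list includes GLUL and SLC7A5, which do not themselves supply any of the 3, and both were called higher. Of these 8 rose, 4 did not pass and none was called lower, with a median log2 fold change of 0.55. Of all tested genes 16.4% rose and 16.0% fell. Among those that did not pass, SLC1A1 went from 1.46 to 0.901 RPKM and GLS2 from 0.588 to 0.335. The groups did not overlap in either gene (log2 fold change -0.59 and -0.58, limma adjusted p = 0.0502 and 0.0532). GLS2 shares 82.8% of its exon bases with other genes. SHMT2, which makes glycine in mitochondria, went from 19.0 to 28.9 RPKM (adjusted p = 0.000282). SLC1A5, a glutamine transporter which shares 23.8% of its exon bases with other genes, went from 29.6 to 43.7. SLC3A2, the heavy chain of the cystine importer, went from 10.6 to 14.4 RPKM (log2 fold change 0.51).

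SLC7A11, the light chain that exchanges cystine for glutamate, was chosen after its values were seen. It stood at 1.05, 0.858 and 0.755 RPKM in empty-vector libraries and at 1.95, 1.66 and 1.96 in circAASS libraries. The groups did not overlap, and the log2 fold change was 1.06 (SE 0.14, limma adjusted p = 0.00198). Cystine import and transsulfuration are the cell's separate routes to cysteine, and SLC7A11 and CTH both rose.

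The methionine cycle, which feeds homocysteine to CBS, and the enzymes of sulfide metabolism were examined next. Of 16 tested genes of 18, 1 rose and 2 fell, where 16.4% of all tested genes rose and 16.0% fell, with a median log2 fold change of -0.05. MTR, the methionine synthase that returns homocysteine to methionine, fell from 12.3 to 7.77 RPKM (log2 fold change -0.58, limma adjusted p = 0.00135), at 11.7, 12.5 and 12.8 against 8.34, 7.21 and 7.76. MAT2A, which makes S-adenosylmethionine, fell from 24.7 to 20.6 RPKM, and MPST, which makes sulfide from a cysteine product, rose from 1.48 to 1.87. Neither call held in 5 of the 6 leave-one-out fits. That of MAT2A was kept only without circAASS library 2 (other adjusted p 0.0559 to 0.118), and that of MPST only without empty-vector library 1 (other adjusted p 0.0556 to 0.12). MTRR, the reductase that reactivates MTR, stood at 3.86 and 4.10 RPKM and did not pass (adjusted p = 0.117).

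Among the other genes of glutathione breakdown, 1 of 7 tested rose, 2 fell and 4 did not pass, with a median log2 fold change of -0.22. Beside this, 16.4% of all tested genes rose and 16.0% fell. OPLAH, which turns 5-oxoproline into glutamate, fell from 0.867 to 0.458 RPKM (log2 fold change -0.72, adjusted p = 0.00868). CNDP2, a dipeptidase that splits cysteinylglycine, fell from 7.39 to 6.01, and CHAC2, the relative of CHAC1, rose from 2.57 to 3.30. Neither call held in 5 of the 6 leave-one-out fits. CNDP2 kept its call only without circAASS library 1 (other adjusted p 0.0634 to 0.140), and CHAC2 only without empty-vector library 2 (other adjusted p 0.0603 to 0.0808). GGACT stood at 0.239 and 0.105 RPKM and did not pass (adjusted p = 0.104). GGT5 and DPEP1 were too low to test, and GGT6 had no row.

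**Figure D4:**
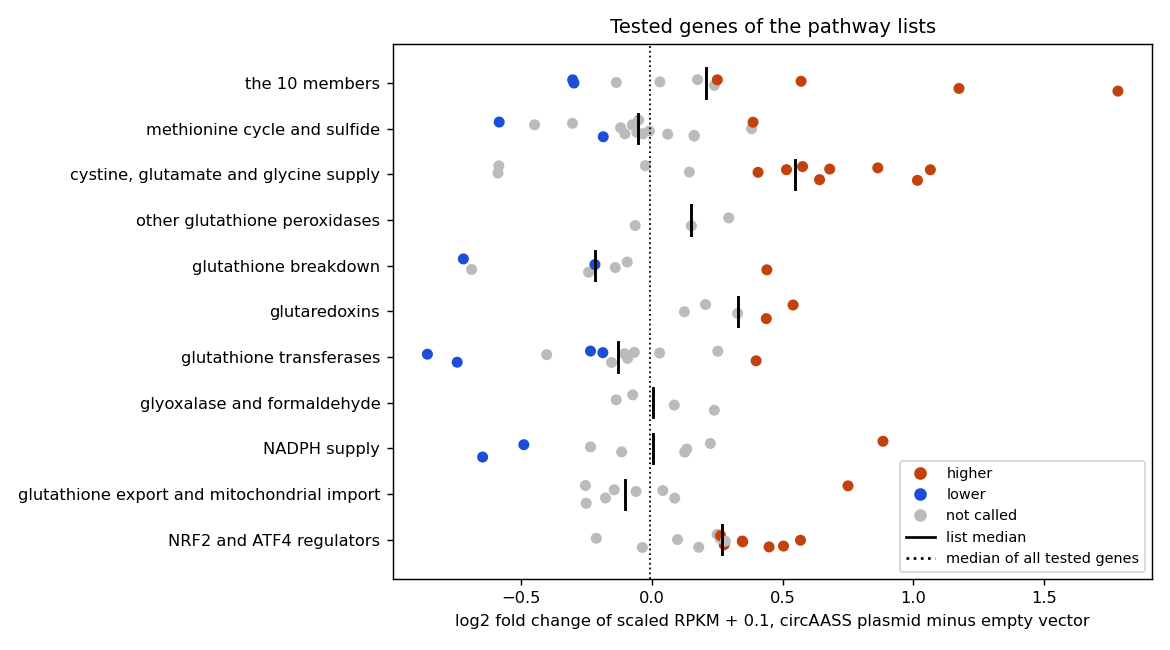
Log2 fold change of scaled RPKM + 0.1 (horizontal axis), circAASS plasmid minus empty vector, of each tested gene of the members and of 10 pathway lists; colours mark genes called higher, called lower or not called, black bars list medians and the dotted line the median of all tested genes. The supply list has 8 of 12 genes called higher and none called lower.

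None of the 3 other peroxidases tested was called by limma at an adjusted p under 0.05. GPX8 of the endoplasmic reticulum stood at 10.5 and 11.1 RPKM, GPX3 at 5.04 and 4.59, and GPX2 at 0.132 and 0.165, with adjusted p of 0.0849, 0.665 and 0.408. GPX7 was too low to test, and GPX5 and GPX6 had no row. Glutaredoxins use glutathione to reduce mixed disulfides. Of 5 tested, GLRX3 rose from 4.76 to 6.61 RPKM (adjusted p = 0.00122) and GLRX2 from 3.39 to 4.39 (adjusted p = 0.013), and none fell. GLRX5 (4.28 and 5.11 RPKM) and TXNDC12 (13.7 and 14.2) did not pass. Both counts stand beside 16.4% of all tested genes called higher and 16.0% called lower.

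Glutathione transferases join glutathione to electrophiles. Of 22 listed, 12 were tested, of which 1 rose, 4 fell and 7 did not pass, with a median log2 fold change of -0.13. These counts stand beside 16.4% of all tested genes called higher and 16.0% called lower. GSTM3 rose from 4.17 to 5.25 RPKM, and GSTZ1 of tyrosine breakdown fell from 0.450 to 0.190 (adjusted p = 0.00907 and 0.00968). The abundant GSTP1 fell from 45.5 to 37.9 RPKM, GSTK1 from 6.06 to 4.87 and GSTO2 from 0.226 to 0.0874. GSTP1 kept its call only without empty-vector library 1 or circAASS library 2 (other adjusted p 0.0908 to 0.136), GSTK1 lost it without empty-vector library 2 or 3 (0.0564 and 0.0682), and GSTO2 without empty-vector library 3 or circAASS library 3 (0.0578 and 0.0555). GSTM1 stood at or below 0.0168 RPKM in every library and GSTT1 had no row.

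GSR needs NADPH. Of 8 genes of NADPH supply, all tested, 1 rose, 2 fell and 5 did not pass, where 16.4% of all tested genes rose and 16.0% fell. The malic enzyme ME1 of the cytosol rose from 6.0 to 10.6 RPKM (log2 fold change 0.88, adjusted p = 0.00106). The mitochondrial IDH2 fell from 19.2 to 11.6 RPKM (log2 fold change -0.65, adjusted p = 0.000323) and the mitochondrial transhydrogenase NNT from 3.05 to 2.03 (-0.49, adjusted p = 0.0068). PGD of the pentose phosphate pathway stood at 67.2 and 58.7 RPKM and did not pass (adjusted p = 0.0716). Those called lower are mitochondrial and the enzyme called higher is cytosolic.

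Of 8 tested transporters of glutathione or its conjugates, limma called 1 higher and none lower, beside 16.4% and 16.0% of all tested genes. The export pump ABCC2 went from 0.158 to 0.328 RPKM (adjusted p = 0.0476), a call kept only without circAASS library 1 among the 6 leave-one-out fits (other adjusted p 0.0598 to 0.135). ABCC1, another pump of conjugates, stood at 6.19 and 5.29 RPKM and SLC25A11, a carrier of the inner mitochondrial membrane, at 5.78 and 4.57, with adjusted p of 0.118 and 0.0571; SLC25A10 stood at 2.04 and 1.62. None of the 4 genes that clear methylglyoxal or formaldehyde with glutathione was called by limma. HAGH stood at 2.64 and 2.98 RPKM, GLO1 at 27.5 and 27.7, ESD at 2.70 and 2.33 and ADH5 at 25.3 and 22.8.

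NRF2 and ATF4 are the transcription factors known to act on GCLM and GCLC and on CTH, CHAC1 and SLC7A11. Of 14 tested genes of these factors and their partners, 7 rose, 7 did not pass and none fell, where 16.4% of all tested genes rose and 16.0% fell, with a median log2 fold change of 0.27. ATF4 rose from 101 to 136 RPKM (adjusted p = 0.0011), at 104, 97.2 and 103 against 127, 145 and 137. The NRF2 partners MAFK and MAFG rose from 6.34 to 8.94 and from 7.76 to 9.37 RPKM, and DDIT3, a partner of ATF4, from 22.5 to 29.2. ATF3 went from 4.37 to 4.99 RPKM and TRIB3 from 3.55 to 4.30 (limma, adjusted p = 0.0328 and 0.0277). The call of ATF3 held in 1 of the 6 leave-one-out fits and that of TRIB3 in 2. NFE2L2, the gene of NRF2, was chosen after its values were seen and went from 10.6 to 12.2 RPKM (log2 fold change 0.28, adjusted p = 0.00997). Overlapping genes share 39.6% of the exon bases with DDIT3 and 20.9% with NFE2L2. Levels of RNA do not show the activity of these factors.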

How the data were processed

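The deposited values were RPKM per gene, made by the authors, in a table of 35035 rows with 1 column per library and no unmatched column. The submitters' processing notes name Trimmomatic 0.36, featureCounts, Subread 1.5.1, edgeR 3.12.1 and GRCh38; no source used here gives the aligner, gene annotation or strand setting, so reads of overlapping genes or close copies can be misassigned. Whole reads were worked out with exon lengths of GENCODE 29: for 22385 of 24697 genes (90.6%) all values were whole within 0.02 reads. For the others, GCLC, GSS, GSR and GPX1 among them, the smallest length giving whole reads was used, and these reads are less certain. Mates were mostly counted separately, so that 78.6% of read numbers from 1 to 20 were even and counting error is larger than the reads imply.

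RPKM were divided by factors from a trimmed mean of log ratios (30% trimmed by ratio, 5% by level; 0.954 to 1.04). The model was fitted to log2(RPKM + 0.1) in limma 3.58.1 under R 4.3.3, with group as the only term and a robust, intensity-dependent prior. Fold changes are on this scale and understate those of low genes. Genes needed 10 reads at the median library size in 3 libraries and 15 in all; 28 names turned into dates were left out. Two-sided p-values were adjusted by Benjamini-Hochberg over all tested genes, and the fit was tested on simulated data. Positions are from GENCODE 29 and promoter windows from RefSeq. Figures were drawn with matplotlib 3.10.9.

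The members and lists were chosen with earlier results of these data known. Values of 2 list genes are not reported here. Named are all members, AASS, up to 4 genes with the smallest p of each pathway list, and every called gene of a direction with 5 or fewer calls. Further list genes, SLC1A1, GLS2, GLUL, SLC7A5, ATF3 and TRIB3 among them, were named after their values were seen. Alternatives were other pseudocounts, filters, scalings and priors, limma-voom on worked-out reads, the repeat number as a block, and leaving out each library.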

Additional observations from a re-analysis of the deposited data

How the results depend on the processing

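Depth limits CHAC1 and CTH with empty vector (40 to 126 reads) most among the members. Over all genes 3172 were called higher and 3090 lower; fits without 1 library gave 2154 to 2829 higher and 1982 to 2842 lower, and library size alone gave 2159 and 4023, a shift of the median log2 fold change from -0.01 to -0.08. Of the members, 4 higher and 2 lower calls became 3 to 4 higher and 1 to 2 lower without 1 library. CHAC1 was not tested with a mean of at least 1 RPKM. In the pathway lists 22 genes were called higher and 10 lower; library size alone gave 17 lower and limma-voom 16 lower, and fits without 1 library gave 18 to 22 higher and 5 to 10 lower. Among the members and the named pathway genes, the directions that turned were those of GPX4 with library size alone (log2 fold change -0.047) and GPX3 among its fits without 1 library (-0.16 to 0.022, the latter without circAASS library 2), neither called. Other uncalled list genes near 0, such as MAT2B (-0.09 to 0.02) and GSTO1 (-0.05 to 0.08), also turned. The cause was not tested. The repeat numbers did not pair the libraries, since same-numbered libraries had deviations correlated at -0.02 to 0.02; with the repeat number as a block 2800 genes were higher and 2647 lower, 3 members higher and 2 lower, and GSR had an adjusted p = 0.0676. CTH, CHAC1, GCLM and GGT1 kept direction and call in every alternative that tested them.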
